A study of Mus musculus with 12 samples.

Results

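Airway club cell and mucosal secretory genes were described in whole-lung RNA-seq of LPS-induced acute lung injury (ALI). The 10 genes were taken by name from the deposited expression table, namely Scgb1a1, Scgb3a1, Scgb3a2, Cyp2f2, Bpifa1, Bpifb1, Muc5b, Muc5ac, Reg3g and Aldh1a1, of 55414 genes in all. The table holds 12 lungs, 6 of IL-10 B-WT mice and 6 of IL-10 B-KO mice (B-WT and B-KO lungs from here on), on a C57BL/6J background. In IL-10 B-KO mice a floxed Il10 gene is deleted by Mb1-Cre, which is driven from the Cd79a locus and is active from early B cells on. The Cre status of the B-WT controls and the ages of the mice, which were matched for age and sex, are not given in the sources used here. Mice of both genotypes received 50 µg of LPS through the nose, and the lungs were taken on day 4 after perfusion and lavage, so that no lung without LPS was compared and fluid from the airspaces had been washed out before RNA extraction. The comparison asks how lungs whose B cells cannot make IL-10 differ from control lungs during recovery from injury.

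Club cells are the secretory cells of the small conducting airways in the mouse. They release secretoglobins, metabolize inhaled chemicals with cytochrome P450 enzymes and can regenerate ciliated cells. In larger airways, mucus and antimicrobial proteins of the Bpif family come from goblet cells, serous cells and glands, and a whole-lung library holds transcripts of both kinds of airway. In bulk tissue, fewer cells of a type and less RNA per cell cannot be told apart. Expression was given as TPM, a unit in which reads are divided by gene length and scaled to a common total, so that levels of different genes can be compared within a library.

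The genotype labels and the lungs were examined first. Il10, the targeted gene, was between 0 and 0.88 TPM in B-WT lungs and between 0 and 0.58 TPM in B-KO lungs, so that whole-lung Il10 did not separate the groups. The B cell genes Pax5 and Cd79a were at most 0.05 TPM in B-KO replicates 1, 3, 4 and 5, whereas Pax5 was 7.94 TPM in B-KO replicate 2 and 3.29 TPM in replicate 6. In B-WT lungs Pax5 was 4.64 to 42.2 TPM, a range that held replicate 2 but not replicate 6. All 8 genes of a B cell list had lower means in B-KO lungs, with a summed level of 84.1 to 966 TPM in B-WT and 7.71 to 96.95 TPM in B-KO lungs, and 1 was called, Cd79a, the locus that carries the Cre (difference -4.16, standard error 0.71, limma adjusted p = 0.0222). That call was lost without any 1 of B-WT replicate 5 and B-KO replicates 1, 3 and 5 (limma adjusted p between 0.0579 and 0.0635), with no filter (0.0999) and with a score of ciliated cell genes as a covariate (0.0554). Their part in the values of the airway genes was not tested. Over 15139 tested genes that are not among the 10, B-WT replicate 1 and B-KO replicate 2 were each nearer to the mean of the other genotype than to their own. The mean absolute difference for B-WT replicate 1 was 0.66 on the log2(TPM + 1) scale to the other B-WT lungs and 0.37 to the B-KO lungs, and for B-KO replicate 2 it was 0.50 to its own genotype and 0.31 to the other. The other 10 lungs were nearer to their own genotype. Of all 12 lungs B-WT replicate 5 was the farthest from its own genotype, at 0.804, and it was 0.905 from the other. Results are given for all 12 lungs. Where they differ, counts of called genes are also given without B-WT replicate 1 and B-KO replicate 2. Then 6 of the 8 B cell genes were called lower, against 15.2% of all genes tested called in either direction. Between 21380 genes, in B-WT replicate 5, and 24138 genes were above 0 TPM per library, and sequencing depth is unknown because TPM does not keep it.

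Among the genes, Bpifa1 and Bpifb1 lie near each other on chromosome 2, and Muc5ac and Muc5b on chromosome 7 (GRCm38, GENCODE M21). Bpifa1 (ENSMUSG00000027483) spans 154142880 to 154149219 and Bpifb1 (ENSMUSG00000027485) 154190818 to 154220369, both on the plus strand. Muc5ac (ENSMUSG00000037974) spans 141788972 to 141819231 and Muc5b (ENSMUSG00000066108) 141839070 to 141873084, also on the plus strand. Scgb1a1 (ENSMUSG00000024653) lies on chromosome 19 between 9083636 and 9087958 on the minus strand, and Aldh1a1 (ENSMUSG00000053279) on the same chromosome between 20492715 and 20643465 on the plus strand. Cyp2f2 (ENSMUSG00000052974) lies on chromosome 7 between 27119909 and 27133660 on the plus strand, Scgb3a1 (ENSMUSG00000064057) on chromosome 11 between 49663610 and 49665118 on the plus strand and Reg3g (ENSMUSG00000030017) on chromosome 6 between 78466269 and 78468872 on the minus strand. Antisense or minus-strand genes overlap Cyp2f2 (Gm15883) and Aldh1a1 (C730002L08Rik and Gm6684). The strand setting of the counting is not given in the sources used here, so that reads of these pairs cannot be told apart, and Aldh1a1 may share reads with its near-identical neighbour Aldh1a7.

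The 250 bases before the transcription start were taken from RefSeq (GRCm38.p6), which held 6 of the 10 genes. They are shown for Scgb3a1, Bpifa1, Bpifb1 and Reg3g, which varied together across lungs as described below, and for Cyp2f2 as a gene of the club cell group. Capitals mark matches, on either strand, to the forkhead letters TGTTTAC or TGTTTGC, the NKX2-1 core CTCAAG or CACTTG, the C/EBP letters TTGCNNAA and the STAT letters TTCNNNGAA, all factors known in airway epithelium or its inflammation.
Scgb3a1 (chr11:49663345-49663594, plus strand): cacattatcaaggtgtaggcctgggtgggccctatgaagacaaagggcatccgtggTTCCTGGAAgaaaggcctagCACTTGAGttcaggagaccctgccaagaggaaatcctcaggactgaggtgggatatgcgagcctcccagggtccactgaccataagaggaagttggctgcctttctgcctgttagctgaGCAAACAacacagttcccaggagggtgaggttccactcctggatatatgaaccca
Bpifa1 (chr2:154142630-154142879, plus strand): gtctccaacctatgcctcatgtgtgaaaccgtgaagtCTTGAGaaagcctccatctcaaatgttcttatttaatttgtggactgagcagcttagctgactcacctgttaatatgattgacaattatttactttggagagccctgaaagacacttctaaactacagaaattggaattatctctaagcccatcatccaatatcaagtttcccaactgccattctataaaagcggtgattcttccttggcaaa
Bpifb1 (chr2:154190568-154190817, plus strand): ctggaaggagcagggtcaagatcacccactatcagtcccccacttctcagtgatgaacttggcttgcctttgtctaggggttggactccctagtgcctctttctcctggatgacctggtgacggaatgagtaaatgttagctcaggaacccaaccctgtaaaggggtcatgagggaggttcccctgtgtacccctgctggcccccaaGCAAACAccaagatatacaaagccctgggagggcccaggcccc
Reg3g (chr6:78468875-78469124, minus strand): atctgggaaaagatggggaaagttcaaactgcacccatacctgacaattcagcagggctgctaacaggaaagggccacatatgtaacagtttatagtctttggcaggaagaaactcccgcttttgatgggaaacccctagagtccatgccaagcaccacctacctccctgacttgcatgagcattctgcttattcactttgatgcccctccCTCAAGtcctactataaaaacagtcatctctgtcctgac
Cyp2f2 (chr7:27119705-27119954, plus strand): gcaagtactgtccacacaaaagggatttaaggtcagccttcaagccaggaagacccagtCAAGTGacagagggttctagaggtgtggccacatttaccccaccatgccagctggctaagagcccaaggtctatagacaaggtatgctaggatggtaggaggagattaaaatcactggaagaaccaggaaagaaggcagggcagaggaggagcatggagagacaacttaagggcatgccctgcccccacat
The upstream sequence of Scgb3a1 held 4 matches, of which an NKX2-1 core on each strand overlapped in a single run of letters, with a forkhead match 55 bases and a STAT match 194 bases before the start. Bpifa1 and Reg3g each held 1 NKX2-1 core, Cyp2f2 held 1 of its second form, and Bpifb1 held 1 forkhead match 43 bases before the first of its 2 listed starts. The window of the second Bpifb1 start, which is not printed, held 1 STAT match 146 bases before that start. Over 32536 RefSeq windows of this length, TGTTTAC was found in 3.17%, TGTTTGC in 4.31%, CTCAAG in 13.3%, CACTTG in 11.5%, TTGCNNAA in 9.57% and TTCNNNGAA in 7.04%, and 38.6% held at least 1 of the 6, so that such matches are common. None of the 6 motifs was matched in all 4 of the genes that varied together.

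Scgb1a1, the secretoglobin CC10 that is the classical club cell product, was the most abundant of the 10 genes in every lung and the most abundant of all genes in 7 of 12 lungs. It was 21914, 45027, 46143, 87750, 26005 and 78959 TPM in B-WT replicates 1 to 6 and 25701, 92710, 15852, 19218, 7755 and 14100 TPM in B-KO replicates 1 to 6. The highest B-KO lung was replicate 2, above every B-WT lung, while replicates 3 to 6 were below every B-WT lung. A single gene thereby took 0.781% to 9.34% of all transcripts. The difference between genotypes on the log2(TPM + 1) scale, B-KO minus B-WT, was -1.12 (standard error 0.56, 95% interval -2.33 to 0.10, limma adjusted p = 0.434). The two-sided exact permutation test over all arrangements of 6 lungs against 6 gave p = 0.0974, where the smallest possible p is 0.00216.

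Scgb3a2 (ENSMUSG00000038791), a secretoglobin of club cells and their early precursors, was 900.3, 3004, 2452, 8404, 1499 and 5689 TPM in B-WT replicates 1 to 6 and 3484, 9019, 1301, 1505, 330.3 and 580 TPM in B-KO replicates 1 to 6. The groups overlapped over nearly their whole range, with a difference of -0.89 (standard error 0.75, limma adjusted p = 0.606). Cyp2f2, the cytochrome P450 of mouse club cells that activates naphthalene, was 288, 1211, 992, 2381, 849.8 and 1778 TPM in B-WT replicates 1 to 6 and 742, 2803, 348, 478, 174 and 103 TPM in B-KO replicates 1 to 6. It had the largest difference of the 10 genes, -1.27 (standard error 0.71, 95% interval -2.79 to 0.25, limma adjusted p = 0.465, exact permutation p = 0.149). Aldh1a1, a retinaldehyde dehydrogenase of airway epithelium, was 99.96, 345, 266, 555, 229 and 393 TPM in B-WT replicates 1 to 6 and 208, 610.1, 181, 131, 109 and 84.3 TPM in B-KO replicates 1 to 6 (difference -0.67, standard error 0.47, limma adjusted p = 0.541). In these 4 club cell genes the same lungs stood at the ends: B-WT replicate 4 and B-KO replicate 2 were the highest of their genotypes, B-WT replicate 1 was the lowest of its genotype, and the lowest B-KO lung was replicate 5 or 6.

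Scgb3a1, a secretoglobin of secretory cells in larger airways, was 289, 2869, 121, 2013, 617 and 1094 TPM in B-WT replicates 1 to 6 and 1154, 947, 1732, 444, 381 and 232 TPM in B-KO replicates 1 to 6. Its B-KO values lay within the range of the B-WT values. The difference was -0.15 (standard error 0.73, limma adjusted p = 0.942), and its sign turned on single lungs. It was 0.25 without B-WT replicate 2, 0.15 without B-WT replicate 4, 0.0077 without B-KO replicate 5 and 0.15 without B-KO replicate 6.

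Bpifa1, or SPLUNC1, a secreted protein of the upper airways with surfactant and antimicrobial activity, had the widest spread of the 10 genes. It was 11.85, 127, 2.06, 871, 247 and 161 TPM in B-WT replicates 1 to 6 and 138, 141, 154, 44.2, 45.85 and 3.27 TPM in B-KO replicates 1 to 6. The ratio of the highest to the lowest lung was 423 within B-WT and 47.0 within B-KO, whereas it was 12.0 for Scgb1a1 over all 12 lungs. The lowest lungs were B-WT replicate 3 and B-KO replicate 6. The genotype difference of -0.45 (standard error 1.27, 95% interval -3.19 to 2.29, limma adjusted p = 0.891) became 0.26 without B-WT replicate 4 and 0.29 without B-KO replicate 6. Bpifb1, or LPLUNC1, a longer relative of Bpifa1, was 18.6, 154, 7.35, 208, 146 and 88.9 TPM in B-WT replicates 1 to 6 and 124, 67.9, 147, 20.7, 30.25 and 10.3 TPM in B-KO replicates 1 to 6. Its groups overlapped and the difference was -0.48 (standard error 0.85, limma adjusted p = 0.817).

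Reg3g, a C-type lectin that binds Gram-positive bacteria and is induced in mucosal epithelium, was 40.9, 858, 5.74, 143, 114 and 76.5 TPM in B-WT replicates 1 to 6 and 321, 76.5, 917, 86.75, 218 and 29.7 TPM in B-KO replicates 1 to 6. The highest lung of each genotype reached nearly the same level, and the lowest was B-WT replicate 3. The difference was 0.91 (standard error 1.02, 95% interval -1.29 to 3.10, limma adjusted p = 0.701). It was 0.19 without B-WT replicate 3, 0.39 without B-KO replicate 3, 1.58 without B-WT replicate 2 and 1.37 without B-KO replicate 6.

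The mucins were low per unit length. Muc5b, the gel-forming mucin that is present in airways at rest, was 9.68, 19.5, 4.87, 17.1, 7.15 and 12.3 TPM in B-WT replicates 1 to 6 and 27.7, 13.8, 49.5, 5.82, 8.88 and 8.48 TPM in B-KO replicates 1 to 6. Only B-KO replicates 1 and 3 were above every B-WT lung, and the difference was 0.41 (standard error 0.47, limma adjusted p = 0.709), which was 0.066 without B-KO replicate 3, 0.23 without B-KO replicate 1 and 0.21 without B-WT replicate 3. Muc5ac, the mucin that rises in goblet cell metaplasia, reached 1.17 TPM in B-WT and 2.39 TPM in B-KO lungs and had at least 1 TPM in 4 of 12 lungs. It was therefore the 1 gene of the 10 that did not pass the filter of 1 TPM in at least 6 lungs, and its difference in a fit without the filter was 0.33 (standard error 0.25, limma adjusted p = 0.718).

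**Figure D1:**
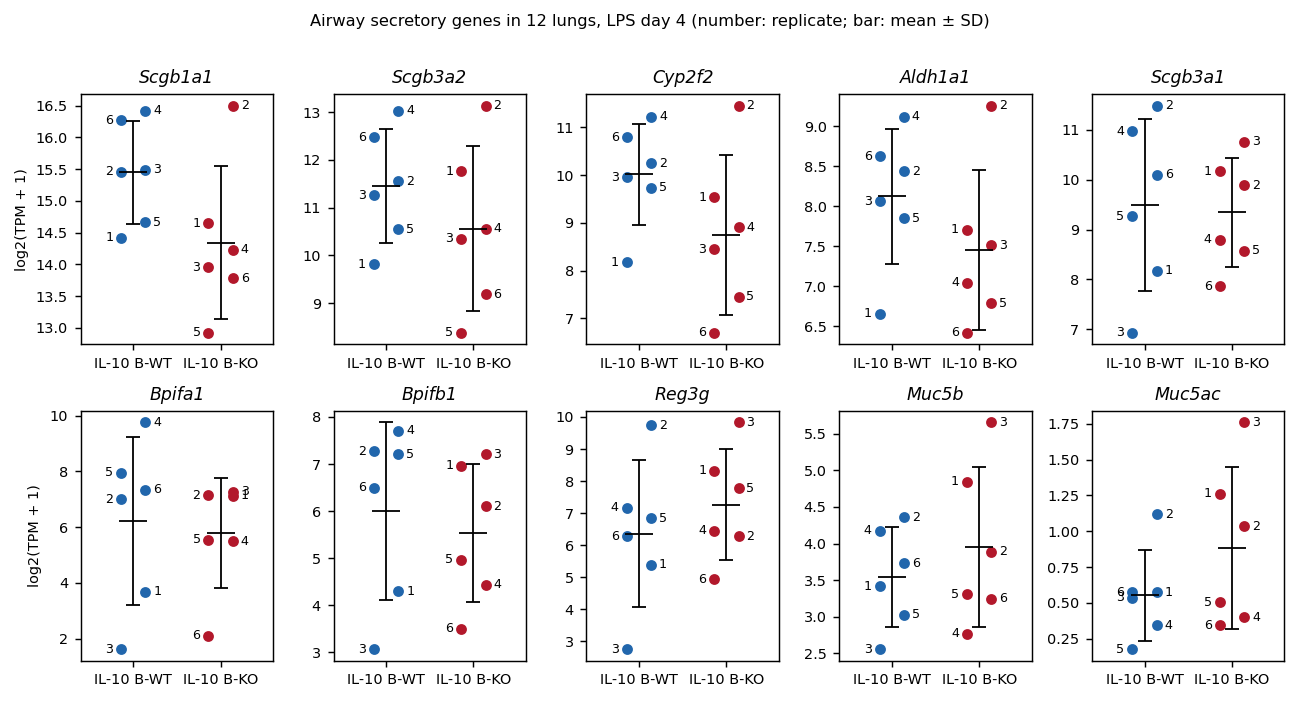
Level of each of the 10 genes in each lung, as log2(TPM + 1) on the vertical axes, with B-WT lungs in blue and B-KO lungs in red. Numbers give the replicate, the horizontal bar is the mean and the whisker 1 SD (n = 6 per genotype). The groups overlap in every panel, and B-KO replicate 2 is the highest lung of its genotype for Scgb1a1, Scgb3a2, Cyp2f2 and Aldh1a1.

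The order of the levels was nearly the same in both genotypes. Scgb1a1 was above Scgb3a2 in all 12 lungs, with medians of 45585 and 2728 TPM in B-WT and 17535 and 1403 TPM in B-KO lungs. Scgb3a1 and Cyp2f2 came next. Cyp2f2 was above Scgb3a1 in 4 of 6 B-WT lungs and Scgb3a1 was above Cyp2f2 in 4 of 6 B-KO lungs, so that these neighbours did not separate. Aldh1a1, Bpifa1, Bpifb1 and Reg3g had medians between 95.2 and 306 TPM in B-WT and between 49.1 and 156 TPM in B-KO lungs, with ranges that overlapped. Muc5b was below these in median and above Muc5ac in all 12 lungs. Together the 10 genes took 2.37% to 10.3% of all TPM in B-WT lungs and 0.912% to 10.7% in B-KO lungs.

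Across the genotypes, 7 of the 9 genes that passed the filter had lower means and 2, Reg3g and Muc5b, had higher means in B-KO lungs, but 0 of 9 passed an adjusted p of 0.05 (limma, Benjamini-Hochberg over 15148 genes). Of all genes tested, 0.522% passed. At an unadjusted p of 0.05, 0 of the 9 passed, against 12.5% of all genes tested. The lungs of the 2 genotypes did not overlap for 0 of the 9, against 1.02% of all genes tested. The spread between lungs of a genotype was large for these genes. Their residual SD lay between 0.92 for Muc5b and 2.54 for Bpifa1 on the log2 scale, where the median over all genes tested was 0.39, and only 0.165% to 7.29% of all genes had a larger one. The median difference over all genes tested was 0.10, and it became -0.01 when each library was centred on its median. The 4 club cell genes kept lower means in B-KO lungs under each scaling tried.

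**Figure D2:**
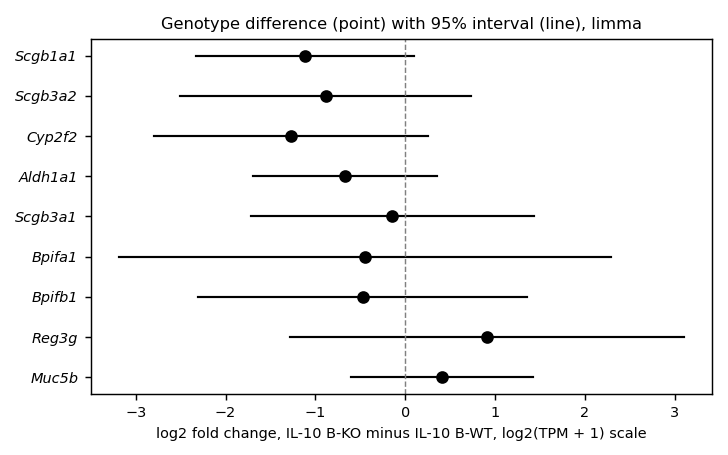
Difference in mean log2(TPM + 1), B-KO minus B-WT, for the 9 genes that passed the filter, with the limma 95% interval as a line. All 9 intervals include 0, and the widest, for Bpifa1, runs from -3.19 to 2.29.

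The club cell genes depended on the lungs that stood apart. Without B-WT replicate 1 and B-KO replicate 2, which were left out after their values had been seen because each was nearer to the other genotype, 3 of the 9 genes passed, all lower in B-KO lungs, against 15.2% of all genes tested over the same 10 lungs. These were Scgb1a1 (-1.75, standard error 0.44, limma adjusted p = 0.0205), Cyp2f2 (-2.18, standard error 0.49, limma adjusted p = 0.0115) and Aldh1a1 (-1.33, standard error 0.29, limma adjusted p = 0.0103). Leaving out lungs for lying near the other genotype enlarges differences by construction, so that this fit gives no independent support. With only 1 of these lungs left out, 0 of 9 passed, against 5.02% of all genes tested without B-WT replicate 1 and 0.878% without B-KO replicate 2. The limma adjusted p of Scgb1a1 was 0.181 without B-WT replicate 1 and 0.108 without B-KO replicate 2. Without the B-KO lungs in which Pax5 and Cd79a were above 1 TPM, replicates 2 and 6, 0 of 9 passed, against 0.337% of all genes tested.

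The 10 genes varied together in 2 groups across lungs. Spearman's rho between Scgb1a1, Scgb3a2, Cyp2f2 and Aldh1a1 lay between 0.909 and 0.986 for their 6 pairs over 12 lungs, and between 0.886 and 1 within each genotype. Among Scgb3a1, Bpifa1, Bpifb1, Reg3g, Muc5b and Muc5ac the median over 15 pairs was 0.716, from 0.00351 for Bpifa1 with Muc5ac to 0.944 for Scgb3a1 with Bpifb1. These pairs ran from -0.493 to 0.943 within B-WT lungs (median 0.657) and from 0.657 to 1 within B-KO lungs (median 0.886). Between the groups the median over 24 pairs was 0.332, from -0.175 to 0.601, and the median was 0.514 within B-WT and 0.429 within B-KO lungs. These values are a description, since the groups were formed from the same lungs and all values of a library share 1 total.

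**Figure D3:**
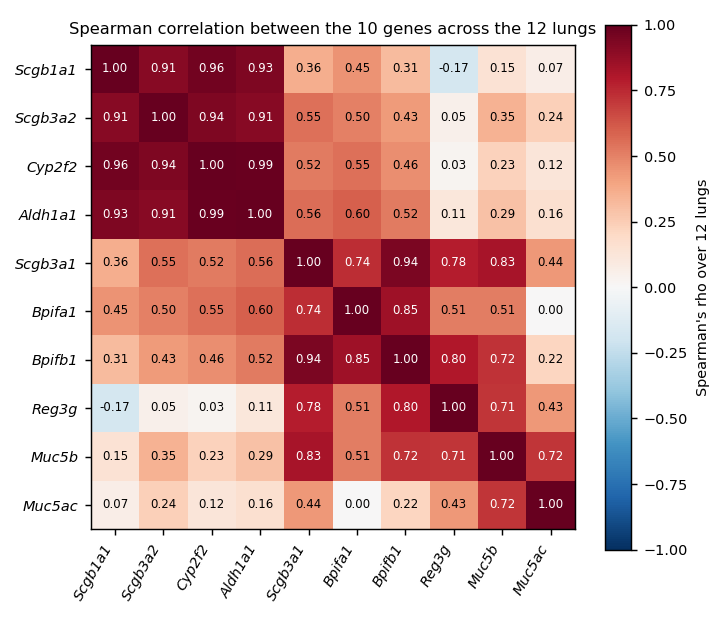
Spearman's rho of log2(TPM + 1) between each pair of the 10 genes over the 12 lungs, from -1 in blue to 1 in red. The 4 club cell genes at the upper left form a block of at least 0.909, and Reg3g has values near 0 with them.

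Of 12 pairs of measures compared, 9 had a Spearman permutation p adjusted over the family of at most 0.05 and 10 a Pearson one. The highest Pearson values were those of Scgb1a1 with Scgb3a2 (Pearson r = 0.947, permutation p = 1e-05, adjusted 6e-05; Spearman's rho = 0.909, permutation p = 0.00013, adjusted 0.00052) and Bpifa1 with Bpifb1 (r = 0.945, permutation p = 1e-05, adjusted 6e-05; rho = 0.846, permutation p = 0.00082, adjusted 0.00197), where 1e-05 is the smallest p that 100000 permutations can give. Without the 2 lungs farthest from the median of the first gene, r was 0.909 and 0.889. Within B-WT lungs r was 0.985 and 0.973, and within B-KO lungs 0.955 and 0.901. Scgb1a1 with Cyp2f2 had r = 0.93 and rho = 0.965 (adjusted permutation p = 0.00015 and 0.00012), and with Aldh1a1 r = 0.913 and rho = 0.930 (adjusted permutation p = 0.00015 and 0.00036). Scgb3a1 with Bpifa1 had r = 0.869 and rho = 0.741 (adjusted permutation p = 0.00042 and 0.0153). Muc5b with Bpifb1 had r = 0.702 and rho = 0.720 (adjusted permutation p = 0.0153 and 0.0168), and it was 0.728 within B-WT and 0.890 within B-KO lungs.

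Reg3g varied with most of the mucosal group and not with the club cell genes. Its rho was 0.797 with Bpifb1, 0.783 with Scgb3a1 and 0.713 with Muc5b, and between -0.175 and 0.112 with the 4 club cell genes. With Bpifa1 it had r = 0.686 and rho = 0.511 (adjusted permutation p = 0.0174 and 0.113), and r was 0.525 without B-WT replicate 3 and B-KO replicate 3, so that the relation rested in part on these lungs. With Scgb1a1 it had r = -0.159 and rho = -0.175 (adjusted permutation p = 0.679 and 0.642) and with the neutrophil score, the mean log2(TPM + 1) of 10 neutrophil genes, r = 0.016 and rho = -0.063 (adjusted permutation p = 0.962 and 0.852). Within the genotypes the latter was -0.695 in B-WT and 0.155 in B-KO lungs. Muc5ac with Muc5b had r = 0.853 and rho = 0.716 (adjusted permutation p = 0.0012 and 0.0168), and r was 0.571 without B-KO replicates 1 and 3 and 0.496 within B-WT lungs.

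Airway content was measured with genes that are not among the 10. The ciliated score, the mean log2(TPM + 1) of 29 of 30 ciliated cell genes that passed the filter, was 3.51 to 4.47 in B-WT lungs (mean 3.95 ± 0.41, SD, n = 6) and 2.83 to 4.66 in B-KO lungs (mean 3.60 ± 0.73, SD, n = 6). The difference was -0.35 (two-sided exact permutation test, p = 0.327, n = 6 per genotype). The highest ciliated score was in B-KO replicate 2 and the lowest in B-KO replicates 5 and 6, and the same lungs were the highest and the lowest for Scgb1a1, Scgb3a2 and Cyp2f2. For Aldh1a1, B-WT replicate 1 was below B-KO replicate 5. Over 12 lungs Scgb1a1 correlated with the ciliated score with r = 0.887 and rho = 0.874 (adjusted permutation p = 0.00042 and 0.00129), with r = 0.913 within B-WT and 0.888 within B-KO lungs, and 0.813 without B-WT replicate 4 and B-KO replicate 2. Bpifa1 correlated with it less closely in value, with r = 0.655 and rho = 0.615 (adjusted permutation p = 0.0256 and 0.0498), and the difference between the r values was not tested. With the ciliated score as a covariate in limma, the differences of the club cell genes were -0.51 for Cyp2f2, -0.58 for Scgb1a1, -0.18 for Aldh1a1 and -0.059 for Scgb3a2, and the means of Scgb3a1, Bpifa1 and Bpifb1 turned to 0.45, 0.54 and 0.17 above B-WT. The ciliated score was read from the same libraries as the club cell genes, and whether airway content, airway size or transcription per cell moved these values was not tested. As a description, the 4 club cell genes had rho between -0.811 and -0.685 with the neutrophil score over 12 lungs. That rho was -0.314 to -0.0857 within B-WT and -1 to -0.886 within B-KO lungs. With a like score of macrophage genes it was -0.783 to -0.678 over 12 lungs. It was -0.371 to -0.314 within B-WT and -0.829 to -0.6 within B-KO lungs. Such values were not particular to these 2 scores among the lists described below. Over 12 lungs rho was -0.825 to -0.706 with the defence score and -0.832 to -0.741 with the score of signals. It was 0.664 to 0.769 with the endothelium score and 0.531 to 0.748 with the B cell score. The part of any of these cells or signals was not tested.

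**Figure D4:**
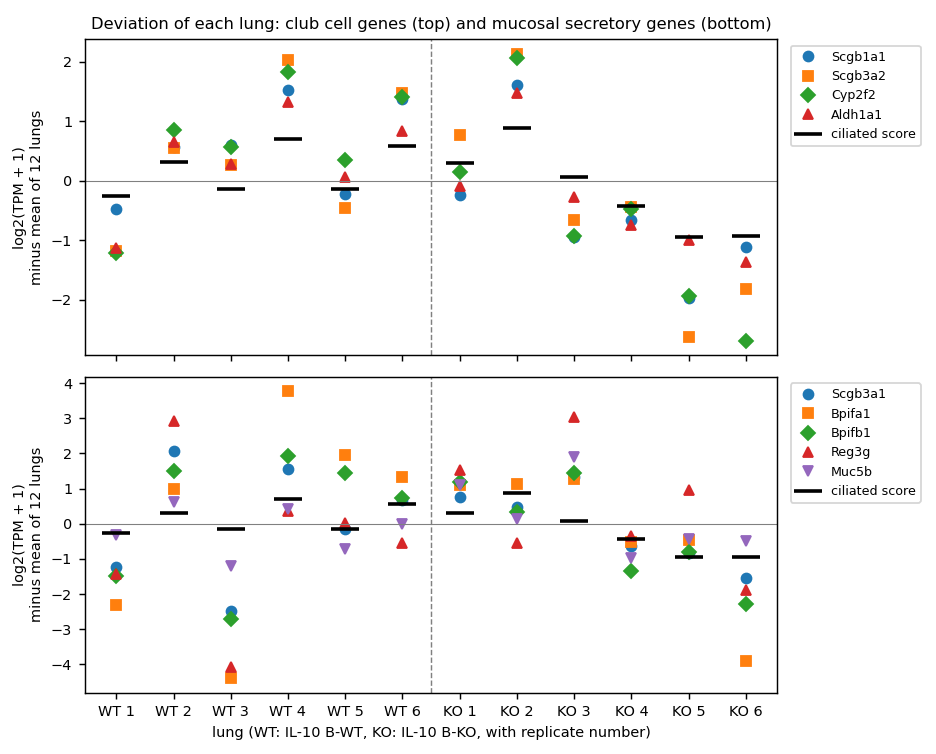
Deviation of each lung from the mean of the 12 lungs, in log2(TPM + 1), for the 4 club cell genes (top) and 5 mucosal secretory genes (bottom), with the ciliated score as a black bar in both. The club cell genes and the ciliated score lie on the same side of the mean in most lungs but on opposite sides in replicate 3 of both genotypes. In B-WT replicate 5 and B-KO replicate 1 the club cell genes lie on both sides of the mean. B-WT replicate 3 is low for the mucosal genes and above the mean for the club cell genes.

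B-WT replicate 3 showed that the 2 groups can part within a lung. Scgb1a1 was 22400 times as high as Bpifa1 there, and 101 times as high in B-WT replicate 4, the lowest ratio among the lungs. In B-KO lungs the ratio lay between 103 in replicate 3 and 4312 in replicate 6. Scgb3a2 relative to Scgb1a1 varied far less, from 0.0411 to 0.0958 in B-WT and from 0.0411 to 0.136 in B-KO lungs. Reg3g was 0.164 to 6.75 times Bpifa1 in B-WT and 0.544 to 9.09 times Bpifa1 in B-KO lungs.

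**Figure D5:**
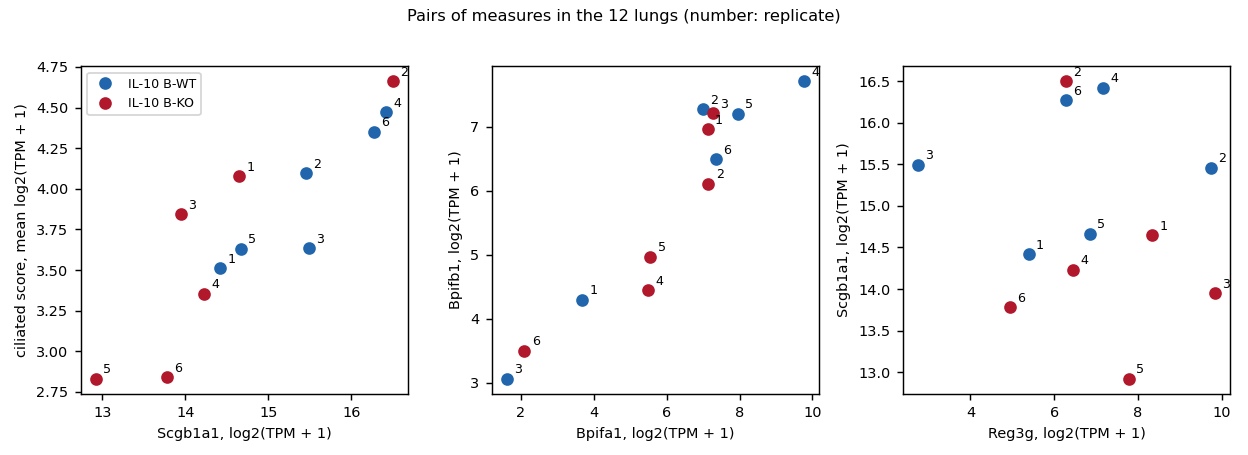
Scgb1a1 against the ciliated score, Bpifa1 against Bpifb1, and Reg3g against Scgb1a1 in the 12 lungs, all as log2(TPM + 1), with B-WT lungs in blue, B-KO lungs in red and replicate numbers beside the points. The first 2 pairs rise together within both genotypes (r = 0.887 and 0.945 over 12 lungs), and the third does not (r = -0.159).

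The genes most like each of the 10 across the 12 lungs were found by Spearman's rho over all tested genes that are not among them, as a description. The closest to Scgb1a1 were Prodh, proline dehydrogenase (rho = 0.993), Ankrd63 (rho = 0.972) and Cbr2, the carbonyl reductase abundant in club cells (rho = 0.972). Cbr2 ran from 470 TPM in B-KO replicate 5 to 7592 TPM in B-KO replicate 2 and was also the closest to Cyp2f2 (rho = 0.993), followed by 1810010H24Rik and the carboxylesterase Ces1e (rho = 0.986 and 0.979). Ces1e, 1810010H24Rik and Cbr2 were closest to Aldh1a1 (rho = 0.979, 0.972 and 0.972), and Lrrc51, Hs3st6 and 1700094D03Rik to Scgb3a2 (rho = 0.993, 0.986 and 0.979). The number of such genes with rho above 0.9 was 122 to 159 for these 4 genes and 0 to 14 for the other 6.

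The mucosal group had other closest genes. Scgb3a1 was followed most closely by Cfap73 (rho = 0.963), Gp2, a glycoprotein of secretory granules (rho = 0.944), and Ggt6 (rho = 0.902). Gp2 was 43.0 TPM in B-WT replicate 2 and 16.9 TPM in B-KO replicate 3, the highest lungs of their genotypes for Reg3g, and was among the closest to Reg3g as well (rho = 0.860), after Cd163 and Igfbp5 (both rho = 0.888). Muc5b was closest to Agr2, the disulfide isomerase needed for mucin folding (rho = 0.930), followed by Ndufaf1 and Ttc39a (rho = 0.909 and 0.895). Agr2 was 32.2 TPM and 51.3 TPM in B-KO replicates 1 and 3 and 3.71 to 15.4 TPM in the other 10 lungs. Bpifa1 was closest to Rbp4, Hspa2 and Barx2 (rho = 0.916, 0.874 and 0.862), Bpifb1 to Serpina9, Tmem158 and Gm5441 (rho = 0.937, 0.928 and 0.916), and the low Muc5ac to Qtrt1, Nupl2 and Lrba (rho = 0.954, 0.940 and 0.933).

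Other genes of the airway secretory program were taken from lists. Of 28 club cell genes of metabolism and identity, 27 passed the filter, of which 22 had lower and 5 higher means in B-KO lungs, with a median difference of -0.35, beside 5568 lower and 9580 higher and a median of 0.10 over all genes tested. None of the 27 passed the adjusted threshold of limma, and 6 were past 0.05 without adjustment. Without B-WT replicate 1 and B-KO replicate 2, 12 of the 27 were called, all lower in B-KO lungs. The choice of these lungs gives that count, and the like counts of the lists that follow, no independent support, as for the 10 genes. For this list and those that follow, the shares over all genes tested were 15.2% called without these lungs and 12.5% past 0.05 without adjustment over 12 lungs. Their numbers of higher and lower means likewise stand beside the 9580 higher and 5568 lower of all genes tested. The paraoxonase Pon1 was 23.6 TPM in B-WT and 8.27 TPM in B-KO lungs (difference -1.69, standard error 0.66, limma adjusted p = 0.342), and the flavin monooxygenase Fmo1 was 473 and 208 TPM (difference -1.48, standard error 0.58, limma adjusted p = 0.342). In the other direction, Kcnk1 was 7.54 and 13.8 TPM and Hp, haptoglobin, 1024 and 1651 TPM (limma adjusted p = 0.325 and 0.373).

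Of 31 goblet cell and mucus genes, 19 passed the filter, of which 15 had higher and 4 lower means in B-KO lungs, with a median difference of 0.34 and 0 called by limma (5 without adjustment). Without the lungs that stood apart, 3 were called higher and 1 lower. Ern2, Tff3, Clca2, Muc13, Muc2, Gcnt3 and St6galnac1 were below 1 TPM in every lung. Slc26a4, the anion exchanger pendrin, was 3.56 TPM in B-WT and 11.0 TPM in B-KO lungs (difference 1.88, standard error 0.56, limma adjusted p = 0.216), and B-WT replicate 1 held 13.6 TPM where the other B-WT lungs held 0.13 to 4.33 TPM. The membrane mucin Muc16 was 0.698 and 2.97 TPM, while Muc6, a gel-forming mucin, was 6.12 and 2.86 TPM, and the trefoil factor Tff2 was 56.4 and 39.6 TPM (limma adjusted p = 0.314, 0.326 and 0.535).

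Of 31 antimicrobial and mucosal defence genes, 17 passed the filter and 15 of these had higher means in B-KO lungs, with a median difference of 0.73 and 0 called by limma (5 without adjustment, and 7 called higher without the lungs that stood apart). The largest were the acute-phase protein Saa3 (difference 4.74, standard error 1.75, limma adjusted p = 0.328) and the siderophore-binding Lcn2 (difference 2.51, standard error 1.03, limma adjusted p = 0.356). Saa3 was 6884 TPM in B-WT replicate 1 and 4.48 to 440 TPM in the other B-WT lungs, and 34.8 TPM in B-KO replicate 2 and 2400 to 8685 TPM in the other B-KO lungs. Reg3g was 40.9 TPM in the lung with the high Saa3 value, B-WT replicate 1, and 858 TPM in B-WT replicate 2, where Saa3 was 32.3 TPM. Tslp, an epithelial cytokine, was 3.46 and 1.68 TPM and Saa2 2.04 and 1.44 TPM (limma adjusted p = 0.298 and 0.916). Of 26 secretoglobin, Bpif, Reg and Aldh1a relatives, 19 were below 1 TPM in every lung, 10 of these at 0, and 5 passed the filter, with 0 called by limma (2 without adjustment, both higher, and 2 called lower without the lungs that stood apart). Among the 5, Scgb1c1 was 14.8 and 8.76 TPM, Pltp 645 and 425 TPM, Aldh1a2 2.34 and 5.64 TPM and Lbp 27.9 and 39.4 TPM in B-WT and B-KO lungs.

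Of 21 regulators of airway lineage and secretory differentiation, 20 passed the filter, 14 with higher and 6 with lower means in B-KO lungs and a median difference of 0.11. Notch3, a receptor that directs secretory cell fate in airways and is also known from the mural cells of vessels, was the 1 gene called, and 2 were called lower without the lungs that stood apart. It was 14.2, 31.7, 19.4, 32.4, 25.35 and 35.6 TPM in B-WT replicates 1 to 6 and 5.28, 12.0, 7.0, 10.85, 6.09 and 2.54 TPM in B-KO replicates 1 to 6, without overlap (difference -1.78, standard error 0.32, limma adjusted p = 0.0236). Its adjusted p ranged from 0.00174 to 0.0999 over the alternatives and was above 0.05 without any 1 of B-WT replicates 2, 4, 5 and 6 or B-KO replicates 1, 3 and 5, with values between 0.0517 and 0.0694. All 8 smooth muscle genes on the list also had lower means in B-KO lungs, with a median difference of -0.90, 0 called by limma (5 without adjustment, and 2 called without the lungs that stood apart) and a summed level of 266 to 1088 TPM in B-WT and 114 to 562 TPM in B-KO lungs, and their part in the Notch3 value was not tested. The transcription factors Cebpa and Foxa2 had means of 39.5 and 61.5 TPM, and of 19.5 and 23.8 TPM, and Hey1, a Notch target, of 58.1 and 43.7 TPM (limma adjusted p = 0.328, 0.570 and 0.498). Of 21 signals that act on secretory cells, 12 passed the filter and 11 had higher means, with a median difference of 0.81 and 0 called by limma (3 without adjustment, and 7 called higher without the lungs that stood apart). Amphiregulin, Areg, an EGF receptor ligand, was 5.27 and 15.1 TPM (limma adjusted p = 0.195), and Tnf was 30.2 and 26.7 TPM with a difference of 1.58 on the log2 scale (limma adjusted p = 0.521). Its B-WT mean rested on replicate 1 at 161 TPM, where the other B-WT lungs held 0.42 to 9.94 TPM. Egfr was 2.18 and 2.01 TPM and Ifng 2.58 and 3.02 TPM. Il4 and Il13, the cytokines that drive goblet cell metaplasia, were below 1 TPM in every lung.

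Markers of the other cell types and tissues that a piece of lung can carry were examined beside these values. Of 30 ciliated cell genes, 29 passed the filter and 26 of these had lower means in B-KO lungs, with a median difference of -0.42 and 0 called by limma (0 without adjustment, and 4 called lower without the lungs that stood apart). The summed ciliated level was 666 to 1636 TPM in B-WT and 354 to 1601 TPM in B-KO lungs. The largest differences were in 1110017D15Rik and the tubulin-associated Tppp3 (-0.90 and -0.78), and, in the other direction, in Mcidas and Ccno, regulators of multiciliated cell formation (0.60 and 0.50). Their adjusted p-values in limma were 0.417, 0.442, 0.514 and 0.643. Of 14 cartilage genes of large airways 10 were below 1 TPM in every lung, Acan and Col2a1 among them, and the highest Acan value was 0.08 TPM. The 3 that passed the filter were Chad, at 5.63 to 47.6 TPM over the 12 lungs, Col11a2 (1.09 to 4.21 TPM) and Col9a3 (0.38 to 1.71 TPM). Of 14 genes of oesophagus, thyroid and fat 9 were below 1 TPM in every lung, including Krt4 and Krt13, whereas the fat gene Adipoq reached 22.4 and 41.8 TPM in B-WT replicates 4 and 5 and at most 7.12 TPM in the other 10 lungs. In the same order, Plin1 was 12.3 and 31.0 TPM against at most 3.71 TPM. Cfd was 352 and 376 TPM against 0.67 to 107 TPM, and Fabp4 104 and 73.1 TPM against 7.49 to 57.7 TPM. B-WT replicates 4 and 5 were also the highest lungs for Bpifa1. As a description, the rho of Bpifa1 with a score of these 4 fat genes was 0.762 over 12 lungs. It was 0.943 within B-WT and -0.0857 within B-KO lungs. Over 12 lungs that rho was 0.671 for Bpifb1 and 0.587 for Scgb3a1, and -0.295 to 0.364 for Reg3g, Muc5b and Muc5ac. The part of carried tissue in these values was not tested. Basal cell Krt5 stayed below 1 TPM in every lung, and 4 of 10 basal cell genes passed the filter, with 0 called by limma. Neutrophil genes had higher means in B-KO lungs for 10 of 10, with a median difference of 1.52, 0 called by limma (8 without adjustment, and 8 called without the lungs that stood apart) and a summed level of 352 to 2543 TPM in B-WT and 1126 to 7826 TPM in B-KO lungs. Macrophage genes had higher means for 10 of 10, with a median of 1.32, 0 called by limma (5 without adjustment, and 6 called without the lungs that stood apart) and summed levels of 210 to 1559 TPM and 572 to 2805 TPM. The neutrophil score was 1.55 higher and the macrophage score 1.08 higher in B-KO lungs (two-sided exact permutation tests, p = 0.0152 and 0.0368). The B cell score was 2.41 lower and the tuft cell and ionocyte score 0.78 higher (two-sided exact permutation tests, p = 0.00866 and 0.0238). Scores of 21 lists were tested in this way over the 12 lungs, and these p-values were not adjusted for that number. The scores of all other lists were above 0.05 in the same exact permutation test. Of the genes that passed the filter in the lists for alveolar type 2 cells, epithelium in general, and tuft cells and ionocytes, 10 of 12, 10 of 10 and 3 of 3 had higher means in B-KO lungs, and of those for alveolar type 1 cells, endothelium and neuroendocrine cells 8 of 10, 8 of 8 and 4 of 5 had lower means. The 3 tuft cell and ionocyte genes that passed were Alox5ap, Dclk1 and Atp6v0d2. Trpm5, Pou2f3, Il25, Foxi1 and Ascl3 of the same list of 9 were below 1 TPM in every lung. B-WT replicate 5 had the lowest summed level of the 12 lungs for alveolar type 2 cells (3885 TPM) and for epithelium in general (214 TPM). T cell genes were divided 4 to 4. In each of these lists 0 genes were called by limma, and 0 to 5 were past 0.05 without adjustment. Without the lungs that stood apart, 5 genes of epithelium in general and 3 of alveolar type 2 cells were called higher, 3 of endothelium were called lower, and 0 to 2 were called in each of the others. All genes of a library share 1 total, and the part of these cells in the club cell values was not tested. When TPM was rescaled without the 10 genes themselves, 0 of 9 passed, against 0.495% of all genes tested.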

How the data were processed

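RNA was taken from whole lungs of 12 LPS-treated mice, 6 per genotype. The authors deposited 1 table of TPM values (reads per transcript, scaled for length and total) for 55414 genes with 2 decimals, and the submitters' processing notes name fastp, HISAT, RSEM and the build GRCm38.p5 without versions. The annotation release and the strand setting are not given in the sources used here, and TPM keeps no depth, so that no counting interval was computed. Each of the 12 columns was assigned to a lung by its label, with 0 columns left over. Coordinates came from GENCODE M21, in which 52133 gene identifiers were found.

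Genes with at least 1 TPM in at least 6 libraries (15148) were compared as log2(TPM + 1) with limma 3.58.1 in R 4.3.3 (moderated test with an intensity trend, Benjamini-Hochberg adjustment, threshold 0.05). Fold changes on this scale understate those of low genes. Single values were compared by two-sided exact permutation and correlations by 100000 permutations in SciPy 1.17.1, and each script that computes a statistic was tested on simulated data. The p-values set a genotype difference against the spread between these lungs, or a correlation against permutations of the lungs. Named were the 10 genes, every called gene of each list, the 2 with the largest difference in each direction in the lists described, and the 3 tested genes with the highest Spearman's rho to each of the 10. Members and the 21 lists were chosen with earlier results of these data known. Alternatives were another pseudocount, 2 other filters, rescaling, quantile normalization, median centring, array weights, a replicate block, a ciliated covariate, an additional fold threshold, and omission of lungs. Apart from the replicate block and the comparison of same-numbered lungs, replicate numbers were used only as names.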

Additional observations from a re-analysis of the deposited data

Results flagged for a closer look

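Bpifa1 in B-KO replicate 6, at 3.27 TPM, lay apart from the other 5 B-KO lungs, which held 44.2 to 154 TPM. On the log2(TPM + 1) scale its gap to the nearest lung was 0.657 of the range of the 6 lungs, above Dixon's 95% critical value. Of 22 sets of 6 lungs examined in this way 1 was past the critical value, and chance alone gives about 1 in 20.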

How the results depend on the processing

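The number of the 9 genes called was 0 in every alternative fit to all 12 lungs and in every fit without 1 lung. It became 3 only without both B-WT replicate 1 and B-KO replicate 2, an omission chosen after the data had been seen. Scgb1a1, Scgb3a2, Cyp2f2 and Aldh1a1 kept lower means, and Reg3g and Muc5b higher means, in B-KO lungs under each alternative run, but their sizes moved: over all alternatives Scgb1a1 ranged from -1.75 to -0.58, Cyp2f2 from -2.18 to -0.51, Scgb3a2 from -1.73 to -0.059, Aldh1a1 from -1.33 to -0.18, Reg3g from 0.19 to 1.74 and Muc5b from 0.066 to 0.72. The smallest differences of the 4 club cell genes were those with the ciliated covariate, and those of Reg3g and Muc5b were without B-WT replicate 3 and without B-KO replicate 3. The difference of Scgb3a1 ranged from -0.66 to 0.25 and that of Bpifa1 from -1.37 to 0.29 when single lungs were left out. With the ciliated score as a covariate the differences of Scgb3a1, Bpifa1 and Bpifb1 were 0.45, 0.54 and 0.17, and without B-KO replicates 2 and 6 those of Scgb3a1 and Bpifa1 were 0.088 and 0.13, and the cause was not tested. The r of Reg3g with the neutrophil score was -0.080 after quantile normalization and -0.22 after centring on genotype means. Quantile normalization gives the top rank 1 value in every library, and the r of Scgb1a1 with Cyp2f2, Aldh1a1 and the ciliated score was then 0.528, 0.469 and 0.515. With replicate number as a block, 0 of the 9 genes and 45 of all genes were called, where 79 were called without the block. Deviations of same-numbered lungs correlated between -0.292 and 0.046, and no lung correlated best with its own number. Of all genes, 8 were called with no filter, 28 after rescaling without immunoglobulin genes, 44 after quantile normalization, 39 after median centring, 669 with array quality weights, 30 with the ciliated covariate and 19 to 761 without single lungs. The call of Notch3 was lost with no filter, after quantile normalization or median centring, and with the block (limma adjusted p = 0.0999, 0.0658, 0.0734 and 0.0679). The number of reads behind low values such as Muc5ac is unknown.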
